A study of Mus musculus with 18 samples.

Results

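The 10 genes described here encode C-type lectin and endocytic receptors of dendritic cells: Clec9a, Ly75, Clec4a4, Clec4a2, Clec4a1, Clec7a, Clec4d, Cd209a, Clec10a and Clec12a. They were taken by symbol from the 17903 genes listed in at least 1 of 3 RNA-seq count tables, each named for a subset of mouse splenic dendritic cells. The cDC1 and cDC2 tables listed all 10, and the pDC table listed 9, without Clec4d. Conventional dendritic cells of type 1 (cDC1), those of type 2 (cDC2) and the plasmacytoid type (pDC) made up the subsets. The labels give each of them from mice labelled HDAC1 Mx1-Cre and from mice labelled HDAC1 floxed, with 3 samples of each genotype, so 6 per subset and 18 in all. All mice, of both genotypes, had been given polyI:C, and their spleens were sorted 2 weeks later. Mx1-Cre is a recombinase driven by an interferon-inducible promoter, so it acts in many cell types and not only in dendritic cells, and polyI:C, an interferon-inducing double-stranded RNA analogue, switches it on. The gates took cDC1 as XCR1+ CD11b-, cDC2 as XCR1- CD11b+ (both Lin- CD11c+ MHCII+ CD64-) and pDC as Lin- CD64- CD11c-intermediate CD11b- BST2+.

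The study was designed to compare the 2 genotypes in each subset. That comparison was not made here, because the 18 value columns carry codes that match 0 sample labels, and no genotype was inferred from the order of the codes or from the values. A column was given a subset only through the name of its table. Every value below is therefore a level in a subset with both genotypes mixed, and the spread over 6 columns includes any difference between genotypes. Nothing in the labels says whether samples of 1 group came from separate mice, so the p-values measure only the spread between these samples.

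C-type lectin receptors are surface proteins built around a lectin-like fold. Many bind sugars on microbes or damaged cells, some bind proteins, and several carry what they bind into the cell for antigen processing. Some signal through activating motifs or through the adaptor FcRγ to the kinase Syk and the CARD9-BCL10-MALT1 complex, whereas others carry an inhibitory motif that recruits phosphatases. Because dendritic cell subsets differ in which of these receptors they display, the receptors serve as markers of subsets and as targets for delivering antigen to them.

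A column held between 23530860 and 37105002 counts in all. A level is given in CPM, the count of a gene scaled to a column total of 1000000 counts. The genes of the sort followed the subset names: Xcr1 lay at 821 to 1141 CPM in cDC1, 6.82 to 9.90 in cDC2 and 1.27 to 2.71 in pDC. Itgam, which encodes CD11b, lay at 1.58 to 3.29 CPM in cDC1, 32.7 to 48.6 in cDC2 and 0.409 to 3.50 in pDC. Bst2 lay at 29.9 to 51.9 CPM in cDC1, 22.9 to 41.5 in cDC2 and 1453 to 2031 in pDC. Itgax, which encodes CD11c, lay at 121 to 197 CPM in cDC1, 276 to 328 in cDC2 and 62.5 to 83.0 in pDC. Markers of other cells were present. Summed over the list, 6 erythroid genes reached 3197 to 8811 CPM in cDC1, 3108 to 5634 in cDC2 and 2328 to 6466 in pDC, and 8 neutrophil genes 290 to 1127, 27.4 to 151 and 12.5 to 291 CPM in the same order. Of the neutrophil genes, Elane had a median of 0 in cDC2. B cell genes summed to at most 192 CPM, T cell genes to at most 25.1 and NK cell genes to at most 22.7 in any column. In these bulk samples, fewer cells of a type and less RNA per cell cannot be told apart.

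Of the 10 genes, 7 lay on chromosome 6, in both cases within a group of neighbouring lectin genes (GRCm38, GENCODE M21). Clec4a1, Clec4a4, Clec4a2 and Clec4d lay within 353 kb, from 122921848 to 123275265. Clec12a, Clec9a and Clec7a lay within 130 kb, from 129342691 to 129472779. Clec10a lay on chromosome 11 (70156197 to 70170834), Cd209a on chromosome 8 (3743397 to 3748984) and Ly75 on chromosome 2 (60292103 to 60383303). Promoter sequences of RefSeq (GRCm38.p6, 250 bases before to 50 after the start of the gene) were matched for 8 of the 10. The 3 from the Clec12a group are printed because these neighbours were each highest in a different subset. Those of Clec4a2 and Clec4a1 are printed because their patterns over the columns were the most alike of any pair compared, which leaves out Clec4d. Positions are chr6:129349994-129350293 (plus strand) for Clec12a, chr6:129408612-129408911 (plus) for Clec9a, chr6:129472730-129473029 (minus) for Clec7a, chr6:123122440-123122739 (plus) for Clec4a2 and chr6:122921598-122921897 (plus) for Clec4a1. The windows of Clec12a and Clec4a2 lie inside the gene as GENCODE draws it. Capitals mark AGGAAG, or CTTCCT for the other strand, a core sequence of the kind bound by the myeloid factor PU.1.
Clec12a: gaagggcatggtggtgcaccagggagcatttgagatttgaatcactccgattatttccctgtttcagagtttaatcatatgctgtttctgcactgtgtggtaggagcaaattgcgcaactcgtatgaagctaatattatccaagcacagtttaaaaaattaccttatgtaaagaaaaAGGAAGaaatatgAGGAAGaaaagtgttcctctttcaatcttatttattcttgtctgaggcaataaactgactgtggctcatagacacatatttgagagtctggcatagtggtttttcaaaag
Clec9a: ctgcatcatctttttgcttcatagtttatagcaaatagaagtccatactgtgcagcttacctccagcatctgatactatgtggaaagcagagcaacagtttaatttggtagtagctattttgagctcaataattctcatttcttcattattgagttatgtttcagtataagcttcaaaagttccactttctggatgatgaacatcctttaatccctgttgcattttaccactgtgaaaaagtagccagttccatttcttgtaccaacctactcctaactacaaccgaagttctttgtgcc
Clec7a: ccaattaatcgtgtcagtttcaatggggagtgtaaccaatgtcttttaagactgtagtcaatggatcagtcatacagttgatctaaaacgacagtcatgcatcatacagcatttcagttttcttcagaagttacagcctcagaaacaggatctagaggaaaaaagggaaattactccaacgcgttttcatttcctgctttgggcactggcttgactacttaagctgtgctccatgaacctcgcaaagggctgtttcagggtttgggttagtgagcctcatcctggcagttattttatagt
Clec4a2: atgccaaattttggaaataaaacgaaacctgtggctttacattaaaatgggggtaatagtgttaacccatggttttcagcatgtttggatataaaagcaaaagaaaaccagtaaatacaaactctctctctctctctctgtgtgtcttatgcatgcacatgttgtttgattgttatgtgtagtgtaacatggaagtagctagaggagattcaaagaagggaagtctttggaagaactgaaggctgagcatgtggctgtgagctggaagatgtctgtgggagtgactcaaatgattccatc
Clec4a1: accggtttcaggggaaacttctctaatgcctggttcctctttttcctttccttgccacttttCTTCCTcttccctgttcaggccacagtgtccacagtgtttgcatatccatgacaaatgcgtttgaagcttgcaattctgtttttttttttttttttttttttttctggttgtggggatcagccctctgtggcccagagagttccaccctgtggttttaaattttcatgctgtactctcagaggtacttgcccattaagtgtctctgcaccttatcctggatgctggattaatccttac

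AGGAAG stood in 4 of the 8 promoters matched, those of Clec12a with 2 copies and of Clec4a1, Clec4d and Cd209a with 1 copy each. Across all 27025 RefSeq promoters of this length, 35.1% held it. CANNTG, the E-box, was in 7 of 8 against 72.1% of all. TGTGGT, a RUNX core, was in 3 of 8 against 16.9%. TGANTCA, an AP-1 site, was in 2 of 8 against 7.93%. Both strands were searched, and matches of different motifs overlapped in 1 promoter, that of Clec4a2. A match is a match of letters only. AGGAAG was in Clec4a1, which was highest in cDC2, and in Clec12a and Cd209a, which were highest in pDC.

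Each of the 9 receptors listed for all subsets was highest in a single subset, with the 6 columns of that subset clear of all others. Clec9a and Ly75 were highest in cDC1, Clec4a4, Clec4a2, Clec4a1 and Clec7a in cDC2, and Cd209a, Clec10a and Clec12a in pDC. Clec4d was higher in cDC2 than in cDC1. Differences were tested with edgeR's quasi-likelihood test on the counts, with Benjamini-Hochberg adjustment over all genes tested and a call at an adjusted p under 0.05. Each SE is the absolute log2 fold change over the square root of F, the test statistic. It restates the test and can be too small where counts are few.

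**Figure D1:**
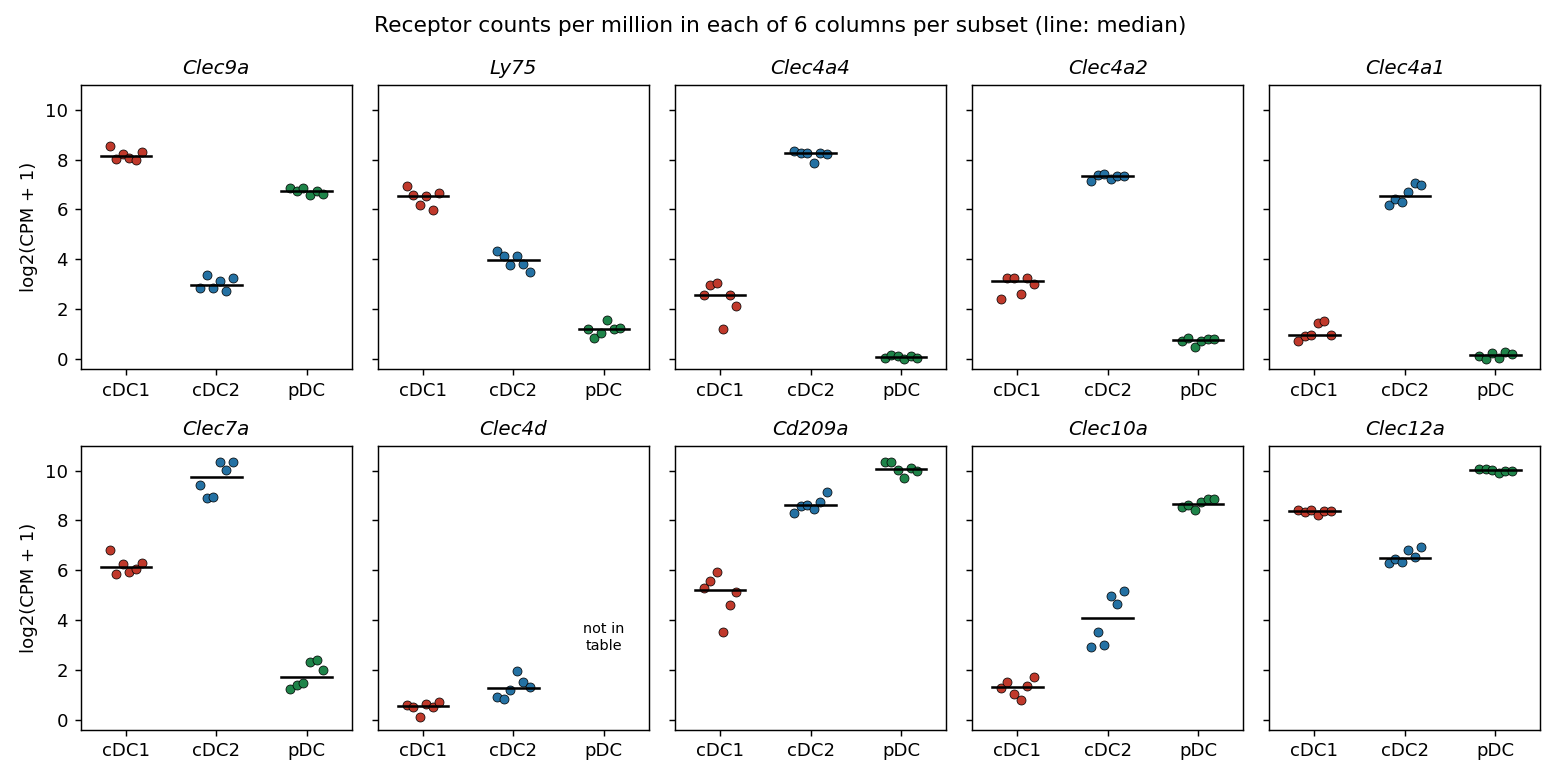
Level of each receptor, as log2(CPM + 1), in each of the 6 columns of the cDC1, cDC2 and pDC tables; points are columns and lines are medians. The ranges of the subsets do not overlap for any receptor, and the 6 Clec7a values of cDC2 fall into a lower and an upper group of 3.

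Clec9a encodes DNGR-1, a receptor for actin filaments exposed by dead cells that supports cross-presentation of their antigens. It lay at 253, 283 and 373 CPM in cDC1 (lowest, median and highest of 6), 5.71, 6.94 and 9.23 CPM in cDC2, and 95.6, 106 and 116 CPM in pDC. The order was thus cDC1, pDC, cDC2, with gaps between all ranges. Its log2 fold change was 5.36 for cDC1 over cDC2 (SE 0.15, edgeR adjusted p = 1.63e-12) and 1.67 for cDC1 over pDC (SE 0.10, edgeR adjusted p = 5.38e-10). The pDC level of this cDC1 marker was well above that of cDC2, with a log2 fold change of -3.66 for cDC2 over pDC (SE 0.13, edgeR adjusted p = 5.11e-12). The other cDC1 markers listed did not share a single order of pDC and cDC2. Irf8, Cd8a, Tlr3 and Cadm1 were, like Clec9a, higher in pDC than in cDC2. Xcr1, the marker of the cDC1 gate, had a pDC level below its cDC2 level, and so did Batf3, Wdfy4 and Id2. The first bases of Clec9a overlap Clec1b on the same strand, and 4.63% of the 31-base words of its transcripts also occur in Clec1b, a gene at 1.90 to 10.9 CPM over all columns.

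Ly75 encodes DEC-205, a large endocytic receptor of the mannose receptor family that is used to target antigen to cDC1. Its levels were 62.4, 92.9 and 123 CPM in cDC1, 10.2, 14.7 and 19.0 CPM in cDC2, and 0.769, 1.29 and 1.94 CPM in pDC. The order was cDC1, cDC2, pDC, with no overlap between subsets. The log2 fold changes were 2.65 for cDC1 over cDC2 (SE 0.17, edgeR adjusted p = 6.64e-09), 6.33 for cDC1 over pDC (SE 0.20, edgeR adjusted p = 4.12e-13) and 3.72 for cDC2 over pDC (SE 0.20, edgeR adjusted p = 3.25e-10). Both receptors that were highest in cDC1 thus had different runners-up, pDC for Clec9a and cDC2 for Ly75.

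The 3 receptors of the DCIR family were highest in cDC2 and stayed at or under 8.60 CPM in every cDC1 and pDC column. Clec4a4 encodes DCIR2, the antigen of the 33D1 antibody that marks the CD8-negative dendritic cells of mouse spleen, and it carries an inhibitory motif. It lay at 1.32, 4.92 and 7.32 CPM in cDC1, 232, 308 and 329 CPM in cDC2, and 0, 0.0577 and 0.121 CPM in pDC. Its 10 pDC counts, spread over 5 columns and with 1 column at 0, make the folds against pDC imprecise in size. The SE for cDC2 over pDC, taken from the test statistic, does not show that imprecision. The log2 fold change was -5.95 for cDC1 over cDC2 (SE 0.30, edgeR adjusted p = 5.50e-10), 6.39 for cDC1 over pDC (SE 0.51, edgeR adjusted p = 2.35e-08) and 12.37 for cDC2 over pDC (SE 0.18, edgeR adjusted p = 1.42e-15). Of its 31-base words, 19.4% also occur in Clec4a2, so counts could be split between these genes.

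Clec4a2 encodes DCIR1, an inhibitory receptor on dendritic cells and other myeloid cells. It lay at 4.29, 7.78 and 8.60 CPM in cDC1, 141, 160 and 171.9 CPM in cDC2, and 0.409, 0.691 and 0.769 CPM in pDC. The cDC2 columns were tight, with a highest value 1.22 times the lowest. Its log2 fold change was -4.47 for cDC1 over cDC2 (SE 0.17, edgeR adjusted p = 3.14e-11), 3.60 for cDC1 over pDC (SE 0.24, edgeR adjusted p = 1.98e-09) and 8.11 for cDC2 over pDC (SE 0.11, edgeR adjusted p = 7.39e-16). Clec4a1 encodes DCIR4, a further member of the family. It lay at 0.637, 0.956 and 1.87 CPM in cDC1, 70.6, 92.9 and 134 CPM in cDC2, and 0, 0.120 and 0.223 CPM in pDC, where 20 counts were found in all. The log2 fold change was -6.34 for cDC1 over cDC2 (SE 0.29, edgeR adjusted p = 1.62e-10), 3.51 for cDC1 over pDC (SE 0.50, edgeR adjusted p = 1.65e-05) and 9.86 for cDC2 over pDC (SE 0.32, edgeR adjusted p = 1.24e-12). None of its 31-base words occur in transcripts of another gene. All 3 DCIR genes thus had the order cDC2, cDC1, pDC.

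Clec7a encodes Dectin-1, the receptor for fungal β-glucan that signals through Syk and CARD9. It lay at 57.2, 69.9 and 110 CPM in cDC1, 482, 865 and 1316 CPM in cDC2, and 1.35, 2.37 and 4.24 CPM in pDC. Within cDC2 no value fell between 679 and 1050 CPM, with 3 columns on each side. Its log2 fold change was -3.58 for cDC1 over cDC2 (SE 0.29, edgeR adjusted p = 7.64e-08), 4.99 for cDC1 over pDC (SE 0.25, edgeR adjusted p = 7.49e-11) and 8.60 for cDC2 over pDC (SE 0.42, edgeR adjusted p = 1.06e-10). The annotation gives Clec7a the biotype polymorphic pseudogene, and the tables list it by symbol. The summed level of 11 listed monocyte and macrophage markers was 256 to 649 CPM in cDC1, 652 to 1298 in cDC2 and 7137 to 8003 in pDC, the last mostly Ly6c2 at 6706 to 7665 CPM. Fcgr1, which encodes the CD64 that the gates excluded, lay at 0 to 1.08 CPM in cDC1, 0.844 to 5.32 in cDC2 and 0 to 0.315 in pDC. In cDC2 the marker sum was higher in the 3 columns with the higher Clec7a, and its part in the Clec7a values was not tested.

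Clec4d encodes MCL, which pairs with FcRγ and the related receptor Mincle in the recognition of mycobacterial glycolipid. It lay at 0.0775, 0.473 and 0.647 CPM in cDC1 and at 0.779, 1.41 and 2.87 CPM in cDC2, in all 83 counts in cDC1 and 257 in cDC2. Its log2 fold change for cDC1 over cDC2 was -1.77 (SE 0.41, edgeR adjusted p = 0.00204). It was the least abundant receptor of the 10 in both conventional subsets, and the ranges came closest together, from a highest cDC1 value of 0.647 to a lowest cDC2 value of 0.779 CPM. Clec4d was not analysed in pDC.

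Cd209a is a mouse homologue of DC-SIGN, which in humans binds mannose and fucose structures on pathogens. It lay at 10.4, 35.9 and 59.2 CPM in cDC1, 314, 389 and 569 CPM in cDC2, and 823, 1080 and 1298 CPM in pDC. The log2 fold change was -3.53 for cDC1 over cDC2 (SE 0.31, edgeR adjusted p = 1.97e-07), -4.79 for cDC1 over pDC (SE 0.32, edgeR adjusted p = 2.57e-09) and -1.22 for cDC2 over pDC (SE 0.16, edgeR adjusted p = 5.58e-06). The cDC2 median was thus 36.0% of the pDC median. For Siglech, an endocytic receptor and marker of pDC, the cDC2 median was 0.121% of the pDC median and the cDC1 median 0.267%. For Ccr9, a chemokine receptor gene and marker of pDC, they were 0.711% in cDC2 and 3.45% in cDC1. The cDC1 median of Cd209a was 3.32% of its pDC median, above the share of Siglech and just under that of Ccr9. Other pDC markers listed varied widely in this respect. Medians in cDC1, cDC2 and pDC were 2.03, 2.94 and 16.0 CPM for Lag3 and 13.7, 45.8 and 507 CPM for Spib. For Cox6a2 they were 1.03, 1.27 and 1340 CPM. What part cells of another subset had in the Cd209a levels was not tested.

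Clec10a encodes MGL1, also called CD301a, an endocytic lectin. It lay at 0.717, 1.51 and 2.24 CPM in cDC1, 6.65, 17.2 and 34.5 CPM in cDC2, and 342, 408 and 467 CPM in pDC. Within cDC2 no value fell between 10.4 and 23.9 CPM, and the 3 upper columns were those with the higher Clec7a and the higher monocyte and macrophage sum, whose part was not tested. Its log2 fold change was -3.67 for cDC1 over cDC2 (SE 0.45, edgeR adjusted p = 7.79e-06), -7.90 for cDC1 over pDC (SE 0.19, edgeR adjusted p = 2.72e-14) and -4.20 for cDC2 over pDC (SE 0.40, edgeR adjusted p = 2.62e-07). Clec10a shares 13.7% of its 31-base words with its paralog Mgl2, so counts could be split. Mgl2, which encodes MGL2, lay at 1.00, 22.2 and 34.6 CPM in cDC1, cDC2 and pDC (medians), and its difference between cDC2 and pDC did not pass the test (edgeR log2 fold change 0.03, SE 0.46, adjusted p = 0.951).

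Clec12a encodes MICL, an inhibitory receptor that binds uric acid crystals and dampens responses to dead cells. It lay at 301, 329 and 344 CPM in cDC1, 78.2, 89.0 and 122 CPM in cDC2, and 966, 1034 and 1081 CPM in pDC. The cDC1 and pDC columns varied little, with a coefficient of variation of 4.71% in cDC1 and 4.10% in pDC, the 2 lowest of any receptor and subset. Its log2 fold change was 1.81 for cDC1 over cDC2 (SE 0.12, edgeR adjusted p = 1.19e-08), -1.45 for cDC1 over pDC (SE 0.08, edgeR adjusted p = 1.38e-10) and -3.22 for cDC2 over pDC (SE 0.13, edgeR adjusted p = 1.33e-11). Of the receptors highest in pDC, Clec12a was the one with more in cDC1 than in cDC2. The order cDC1 above cDC2 was shared by Clec9a, Ly75 and Clec12a and by no other of the 10.

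All 28 differences that could be tested passed, and in all 28 the ranges of the subsets did not overlap. These shares have to be read against a background in which much of the transcriptome differed. In pDC, Clec4a4 had 0 to 3 and Clec4a1 0 to 7 counts per column, below the filter's minimum count of 10. Both genes entered the tests against pDC only through the other subset, where they are higher. Their results stay in all the counts given here. For cDC1 over cDC2, 10 of 10 receptors were called, 3 higher and 7 lower, against 49.2% of 13209 genes tested (24.6% higher and 24.6% lower). For cDC1 over pDC, 9 of 9 were called, 6 higher and 3 lower, against 65.9% of 13187 genes (32.9% higher and 33.0% lower). For cDC2 over pDC, 9 of 9 were called, 5 higher and 4 lower, against 68.2% of 13042 genes (34.3% higher and 33.9% lower). Ranges were apart for 28.4%, 45.9% and 53.2% of the genes tested in the same 3 comparisons. The same comparisons were also counted by size. Calls of over 2-fold were made for 10 of 10 receptors against 18.5% of genes for cDC1 over cDC2, for 9 of 9 against 30.2% for cDC1 over pDC, and for 9 of 9 against 30.1% for cDC2 over pDC. Calls of over 8-fold were made for 7 of 10 receptors against 2.71% of genes for cDC1 over cDC2, for 7 of 9 against 7.97% for cDC1 over pDC, and for 8 of 9 against 8.78% for cDC2 over pDC. The median absolute log2 fold change was 3.62 over the receptors and 0.37 over all genes for cDC1 over cDC2, 4.79 and 0.56 for cDC1 over pDC, and 4.20 and 0.53 for cDC2 over pDC. The receptors are established subset markers and were chosen with earlier results of these data known, so these shares describe them and were not tested.

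**Figure D2:**
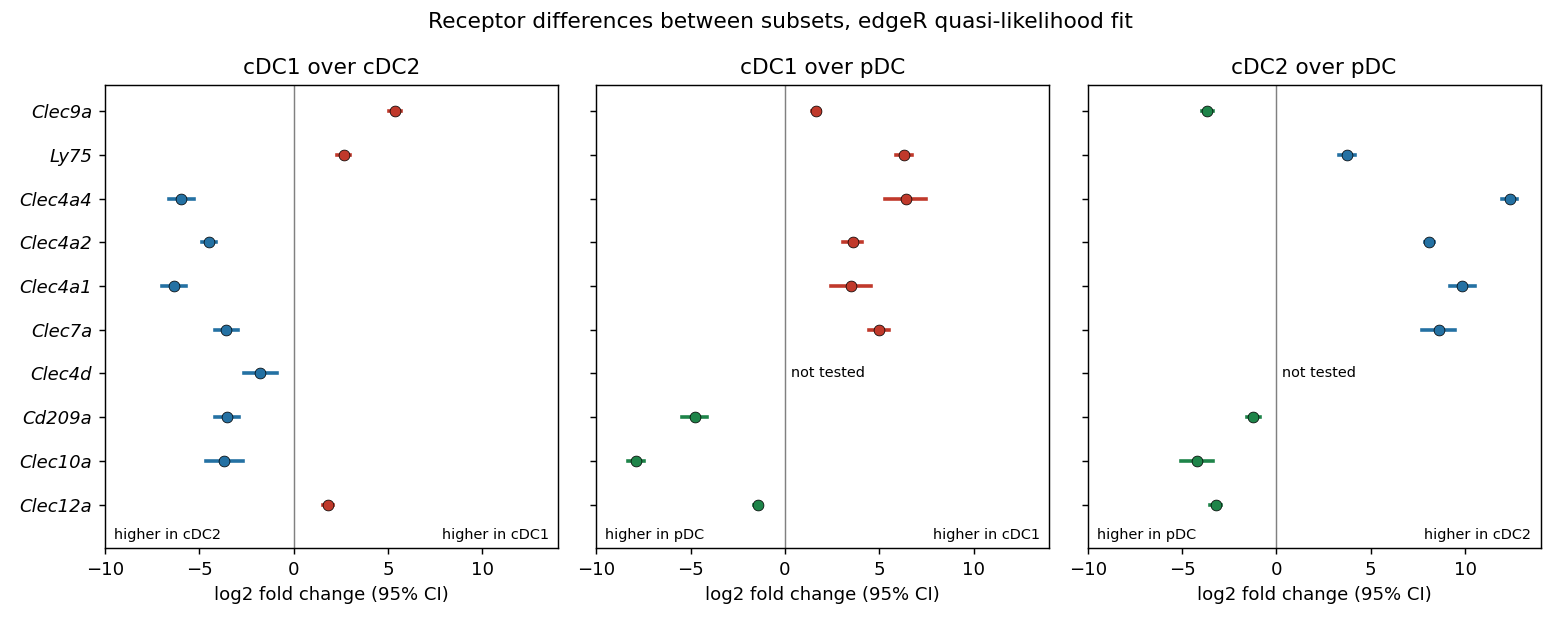
Log2 fold change of each receptor for cDC1 over cDC2, cDC1 over pDC and cDC2 over pDC. Lines are 95% intervals derived from the F statistic of edgeR's quasi-likelihood test, and can be too narrow where counts are few. Values right of 0 are higher in the subset named first. The values run from -7.90 for Clec10a in cDC1 over pDC to 12.37 for Clec4a4 in cDC2 over pDC. No interval crosses 0, which follows from each test having passed.

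Levels of different receptors were compared per kilobase of annotated exon (CPM per kb, medians of 6 columns), as a description. In cDC1, Clec9a led at 85.9 CPM per kb, followed by Clec12a at 59.4, Clec7a at 26.5, Cd209a at 22.7 and Ly75 at 13.5. The ranges of Clec7a and Cd209a overlapped, as did those of Cd209a and Ly75. In cDC2, Clec4a4 stood at 397 CPM per kb, Clec7a at 328 and Cd209a at 246, and the ranges of these 3 overlapped. Clec4a4 has only 776 bases of annotated exon, the least of the 10, which raises its value on this scale. Next came Clec4a1 at 59.6 and Clec4a2 at 54.8 CPM per kb, with overlapping ranges. In pDC, Cd209a led at 682 CPM per kb, ahead of Clec12a at 187, Clec10a at 141 and Clec9a at 32.2, and the 5 other receptors listed stayed at medians of 0.899 or below. The summed level of the receptors in CPM ran from 741 to 999 in cDC1, 1547 to 2646 in cDC2 and 2321 to 2860 in pDC. Over 50 CPM per kb stood 2 receptors in cDC1, 5 in cDC2 and 3 in pDC.

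Along chromosome 6, the Clec4a group was nearly uniform in its subset order, and the Clec12a group was not. Of the 8 protein-coding lectin genes of the Clec4a group, 7 were highest in cDC2, counting Clec4d, which is listed for cDC1 and cDC2 only. Clec4a3, which encodes DCIR3, had median levels of 5.52 CPM in cDC1, 421 in cDC2 and 0.939 in pDC. Clec4n, which encodes Dectin-2, a receptor for fungal mannan, had 5.28, 70.0 and 1.27 CPM, and Clec4b1 had 2.95, 60.3 and 0.482 CPM in the same order. Clec4b2 went the other way, with a median of 31.3 CPM in cDC1 and 0.245 CPM in cDC2 (edgeR log2 fold change for cDC1 over cDC2 6.66, SE 0.53, adjusted p = 7.01e-08). In the Clec12a group the starts of Clec12a, Clec9a and Clec7a were within 130 kb, yet pDC was highest for the first, cDC1 for the second and cDC2 for the third. Between them, Clec1a, which encodes CLEC-1, had median levels of 23.3 CPM in cDC1, 5.58 in cDC2 and 8.47 in pDC. Like its neighbour Clec9a it was highest in cDC1, but its difference between cDC2 and pDC did not pass the test (edgeR log2 fold change -0.31, SE 0.27, adjusted p = 0.315). Clec12b stayed at or under 0.296 CPM in every column.

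**Figure D3:**
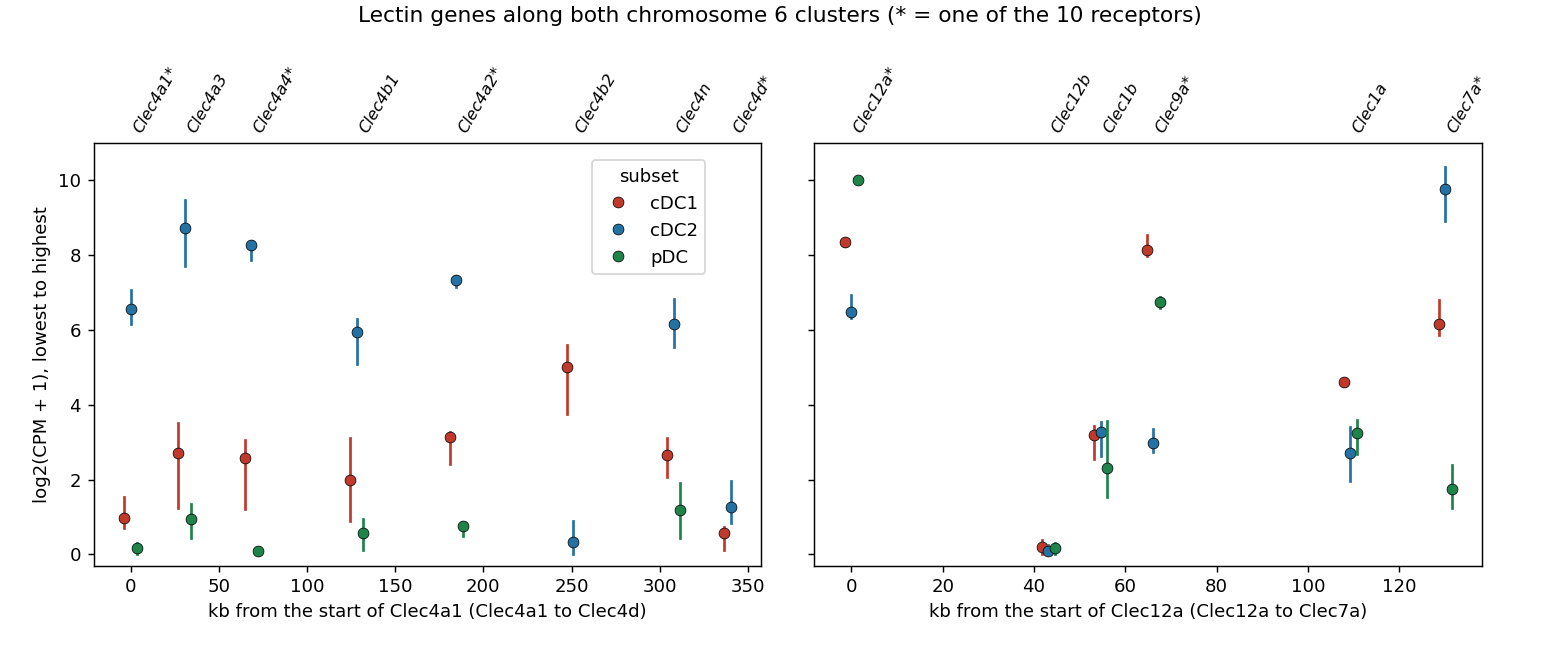
Level of the lectin genes listed, as log2(CPM + 1), along both groups on chromosome 6, against the distance in kb from the start of Clec4a1 and of Clec12a; points are medians of 6 columns, lines run from the lowest to the highest, and an asterisk marks the receptors described here. Clec4b2 is the gene of the Clec4a group that is higher in cDC1 than in cDC2, whereas Clec12a, Clec9a and Clec7a each have another subset on top.

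A list of 46 other C-type lectins and lectin-like receptors gave 36 genes tested for cDC1 over cDC2, of which 7 were higher, 18 lower and 11 not called. For cDC1 over pDC, 14 of 32 were higher, 13 lower and 5 not called, and for cDC2 over pDC, 16 of 33 were higher, 9 lower and 8 not called. The share called was thus 69.4%, 84.4% and 75.8% of the list, against 49.2%, 65.9% and 68.2% of all genes tested. The median log2 fold change of the list was -0.56, 0.33 and 0.47 in these comparisons, against 0.01 in each over all genes. Of the 37 genes listed in all tables, 32 reached 1 CPM in a subset, and 3 of these were highest in cDC1, 16 in cDC2 and 13 in pDC. Genes not listed for pDC are outside this count. Among them are Cd207 and Clec4b2, higher in cDC1 than in cDC2, and Cd209b, higher in cDC2. Langerin, encoded by Cd207, is an endocytic receptor that forms Birbeck granules in Langerhans cells, and it had medians of 54.4 CPM in cDC1 and 0.170 CPM in cDC2 (edgeR log2 fold change for cDC1 over cDC2 8.56, SE 0.76, adjusted p = 2.42e-07). Cd209d, a paralog of Cd209a, had medians of 15.4 CPM in cDC1, 3.33 in cDC2 and 1414 in pDC. Like Cd209a it was highest in pDC, but unlike Cd209a it was higher in cDC1 than in cDC2 (edgeR log2 fold change 2.27, SE 0.38, adjusted p = 0.000151). Cd209b, known as SIGN-R1 on marginal zone macrophages, had medians of 0.278 CPM in cDC1 and 10.66 CPM in cDC2 (edgeR log2 fold change -5.15, SE 0.56, adjusted p = 2.12e-06). Klri1, a lectin-like receptor of the killer cell family, had medians of 91.0 CPM in cDC1, 112 in cDC2 and 0.571 in pDC, and its difference between cDC1 and cDC2 did not pass the test (edgeR adjusted p = 0.202).

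**Figure D4:**
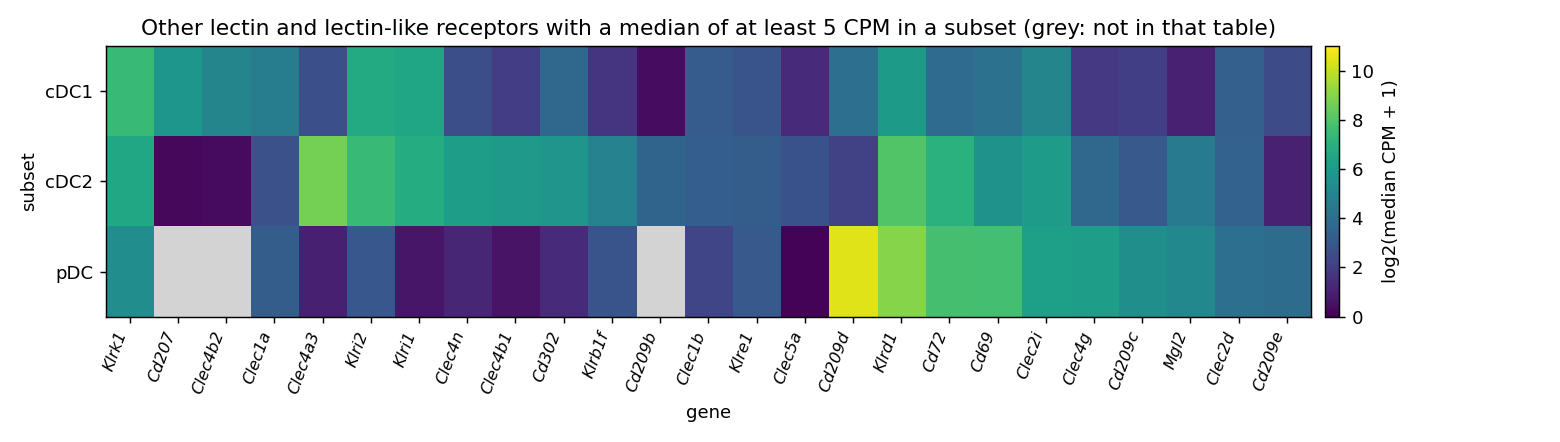
Median level, as log2(CPM + 1), of 25 other lectin and lectin-like receptors with a median of at least 5 CPM in a subset, with subsets as rows and genes as columns; grey marks a gene that the table does not list. Cd209d is the brightest in pDC at 1414 CPM, and Clec4a3 is the brightest in cDC2 at 421 CPM.

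Of the endocytic and scavenger receptors outside the lectin family, 10 of 24 were higher, 9 lower and 5 not called for cDC1 over cDC2. For cDC1 over pDC, 8 of 21 were higher, 8 lower and 5 not called, and for cDC2 over pDC, 8 of 21 were higher, 7 lower and 6 not called. The share called was thus 79.2%, 76.2% and 71.4% of the list, against 49.2%, 65.9% and 68.2% of all genes tested. Cd36, a scavenger receptor for lipids and apoptotic cells, had medians of 438 CPM in cDC1 and 7.68 CPM in cDC2 (edgeR log2 fold change 5.88, SE 0.21, adjusted p = 1.11e-11). Fcgr2b, the inhibitory Fc receptor, had 7.56 CPM in cDC1 and 49.4 CPM in cDC2 (edgeR log2 fold change -2.78, SE 0.20, adjusted p = 2.00e-08). Cxcl16, a transmembrane chemokine and scavenger receptor, had 439 CPM in cDC1, 210 in cDC2 and 0.853 in pDC. Havcr2, which encodes TIM-3, had 367 CPM in cDC1, 275 in cDC2 and 13.4 in pDC.

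Signalling partners of these receptors differed by less than the receptors did. The 21 genes of the list had a median absolute log2 fold change of 0.58 for cDC1 over cDC2, 1.06 for cDC1 over pDC and 0.70 for cDC2 over pDC, against 0.37, 0.56 and 0.53 over all genes. Of the 21, 5 were higher, 12 lower and 4 not called for cDC1 over cDC2. For cDC1 over pDC 7 were higher, 12 lower and 2 not called, and for cDC2 over pDC 9 were higher, 11 lower and 1 not called. The share called was thus 81.0%, 90.5% and 95.2% of the list, against 49.2%, 65.9% and 68.2% of all genes tested. Fcer1g, which encodes the adaptor FcRγ, had medians of 207 CPM in cDC1, 1566 in cDC2 and 983 in pDC. Syk, the kinase downstream of Dectin-1, had 32.1 CPM in cDC1, 104 in cDC2 and 168.6 in pDC. Card9, the adaptor after Syk, had 4.43, 6.42 and 1.26 CPM in the same order. Malt1, the protease of the CARD9 complex, had 87.3, 286 and 68.4 CPM. The subset with the highest Clec7a thus also had the highest Fcer1g, Card9 and Malt1, whereas Syk was highest in pDC, where Clec7a was lowest.

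The genes most like each receptor were those with the smallest root mean square difference in centred log2(CPM + 1) over the 18 columns, out of 13539 genes compared. The columns of a subset share its cell type, so this describes the pattern over 3 subsets. Clec12a had the closest match, Iqgap2 at 0.20, then Pafah1b3 at 0.25, where the median gene differed by 1.39. Clec9a was most like Serpinf1 (0.47) and Laptm4b (0.48), and Ly75 most like Rab32 and Trpm2 (both 0.34). Clec4a4 was closest to the signal-regulatory protein genes Sirpb1a (0.37) and Sirpb1b (0.43). Clec4a1 was closest to another gene of that family, Sirpb1c (0.29), and then to Rtp4 (0.46), which is not of that family. Clec4a2 was most like Ifitm1 (0.39) and Cd300ld (0.44), and Clec7a like Ccrl2 (0.56) and Mcemp1 (0.58). Cd209a was most like Cybb and Cd4 (both 0.45). Clec10a had the least close match, P2ry13 at 0.68 and Gapt at 0.70. Among the receptors listed for all subsets, Clec4a2 and Clec4a1 were the most alike in pattern at 0.66, followed by Clec4a4 and Clec4a2 at 0.77.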

How the data were processed

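RNA of sorted splenic cDC1, cDC2 and pDC was sequenced from libraries made with the SMARTER kit, per the labels' protocols. The authors deposited whole-number counts per gene symbol in a raw table for each subset. Kallisto, DESeq2 and the build GRCm38 stand in the submitters' processing notes, with no role or version. Kallisto estimates need not be whole and the deposited counts are. How genes were chosen for a table is not stated. The 18 columns of the normalized tables were not used, since each table was normalized separately. All 18 raw columns were given a subset through the table's name and none a sample or genotype.

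CPM was the count over the column total. Differences were tested on the counts with edgeR 4.0.16 (R 4.3.3): TMM scaling, filterByExpr with its defaults (a minimum count of 10 and a minimum total of 15), a quasi-likelihood fit of the 12 columns of each pair of subsets over genes listed in both tables, and Benjamini-Hochberg adjustment over all genes tested. The alternatives were DESeq2 1.42.0, its size factors in edgeR, no filter, 1 fit of all 18 columns, and each column left out. Both tools were tested on simulated data in which few genes differed, unlike in these data. That run therefore does not vouch for the scaling or the tests here. No replicate pair agreed within sampling noise, with a chi-square of at least 10.0 times its degrees of freedom in every pair of columns of a subset.

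The members and lists were chosen with earlier results of these data known. Genes outside the 10 were named by rule: up to 3 per list, direction and comparison with the largest absolute log2 fold change among those called, the 2 most like each receptor, and the sort markers. A gene of the lectin list that this rule names is not reported here or plotted, and stays in the counts of the list. Other markers, lectin genes of both chromosome 6 groups, Cd209d and Mgl2 beside their paralogs, and the list values of Syk, Card9, Fcer1g and Malt1 in every subset were added after their values were seen. Markers of other cell types were monocyte and macrophage, neutrophil, B cell, T cell, NK cell and erythroid lists, and Vsig4 of the first was not listed.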

Additional observations from a re-analysis of the deposited data

Results flagged for a closer look

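In each group of 6 columns, the gap between the most extreme value and its nearest neighbour was compared with the range of the group, and values past Dixon's 95% critical value are given here. Of 29 receptor and subset groups, 3 held such a value, and chance alone flags about 1 in 20 groups. Clec4a4 in cDC2 had 1 low column at 232 CPM, the next being 297 CPM. Clec4a2 in pDC had 1 low column at 0.409 CPM, the next being 0.654 CPM, and rested on 11 to 24 counts per column. Clec7a in cDC1 had 1 high column at 110 CPM, the next being 76.4 CPM. The columns are 3 different ones, a167, a164 and a157. None of these values comes near the range of another subset.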

How the results depend on the processing

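All member log2 fold changes kept their direction and stayed called under the 4 other settings (111 values, highest adjusted p 0.0022) and with each column left out (336 values, highest adjusted p 0.0057). Clec4d could not be fitted with all 18 columns, as 1 table does not list it. Genes called numbered 6511 to 6843 for cDC1 over cDC2, 8704 to 8986 for cDC1 over pDC and 8684 to 9101 for cDC2 over pDC under the other settings, and 6124 to 6583, 8446 to 8892 and 8696 to 8865 with a column left out. TMM-scaled CPM moved the median of 3 of 27 receptor levels by more than 1 SD: Clec9a in pDC to 97.2 CPM, Clec12a in cDC1 to 348 CPM and Clec12a in pDC to 930 CPM. No paired analysis was possible because the column codes carry no replicate number that a label gives. Depth limits Clec4a4 and Clec4a1 in pDC, with 10 and 20 counts over 6 columns, and Clec4d. Each subset has its own table, and a batch that follows the subset cannot be told apart from it.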

Other observations

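Some of the receptors split the columns of a subset into the same 3 and 3, with Clec7a and Clec10a the widest apart in cDC2. Clec9a, Clec4a4, Clec4a2, Ly75 and Cd209a did not split in this way in cDC2. Clec4a4, Clec4a2, Clec4a1, Ly75 and Cd209a did not in pDC. Clec7a lay at 679, 482 and 487 CPM in columns a158, a161 and a165 and at 1298, 1050 and 1316 CPM in a167, a170 and a173. Clec10a lay at 6.65, 10.4 and 6.94 CPM in the first of these and at 30.6, 23.9 and 34.5 CPM in the others. The monocyte and macrophage marker sum was 749, 730 and 652 CPM in a158, a161 and a165 and 1298, 1225 and 1204 CPM in a167, a170 and a173. The same columns were also the higher ones for Clec4a1 (102, 134 and 127 CPM in a167, a170 and a173, and 70.6, 83.6 and 78.6 CPM in a158, a161 and a165), for Clec12a (112, 90.8 and 122 CPM, and 78.2, 87.2 and 79.9 CPM) and for Clec4d (2.87, 1.86 and 1.51 CPM, and 0.895, 0.779 and 1.30 CPM). In pDC, Clec7a lay at 1.35, 1.66 and 1.79 CPM in a159, a162 and a164 and at 3.95, 4.24 and 2.96 CPM in a168, a171 and a174, and Clec10a at 373, 387 and 342 CPM and at 430, 459 and 467 CPM in the same columns. In pDC the values of Clec12a were 1069, 1081 and 1051 CPM in a159, a162 and a164 and 966, 1016 and 1017 CPM in a168, a171 and a174, and those of Clec9a 115, 107 and 116 CPM and 95.6, 105.6 and 97.6 CPM. In cDC1 neither Clec7a nor Clec10a split in this way, although the marker sum did, at 269, 290 and 256 CPM in a157, a160 and a163 and 571, 544 and 649 CPM in a166, a169 and a172. Within that sum, Ccr2 had by far the widest range over the cDC1 columns, 39.1 to 369 CPM. Spic had the next widest at 15.4 to 77.0 CPM, whereas Adgre1 lay at 2.70 to 7.17 and Csf1r at 15.0 to 25.1 CPM. Cd209a lay at 37.6, 46.2 and 59.2 CPM in a157, a160 and a163 and at 10.4, 23.4 and 34.2 CPM in a166, a169 and a172. The chi-square per degree of freedom between columns, which is not confined to the receptors, divided the cDC2 and pDC columns in the same way. In cDC2 it was at most 49.1 for pairs inside a group of 3 and 49.7 to 70.8 for pairs across the groups. In pDC it was at most 29.7 inside and 37.5 to 58.2 across. In cDC1 it did not, at 127.9 for a166 with a172 and 39.8 for a163 with a169. The share of all genes that split in this way was not counted. The labels give these codes no genotype, mouse or batch, so the values stand by column and no test of the splits was made.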
